A study of Mus musculus with 16 samples.

Results

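The collagen genes of the mouse heart apex were taken as all genes of the count table whose symbol is Col, a number, a and a number. Of 55573 genes, 44 met this rule, and the 32 with at least 10 counts in 4 or more mice were analysed as 8 fibrillar, 8 basement membrane and 16 other collagens. RNA-Seq had been performed on 16 male mice, 4 in each of 4 groups, which had received AAV9 as wild-type pups on postnatal day 1. The virus carried GFP or Cardinal, a long noncoding RNA listed as Gm12295, behind the cTnT (cardiac troponin T) promoter. This promoter is active in cardiomyocytes and not in the fibroblasts that make most fibrillar collagen. The mice underwent sham surgery or TAC (transverse aortic constriction, which raises the pressure that the left ventricle pumps against), and hearts were collected 4 weeks later. Groups are named by virus and surgery, as in AAV9-GFP sham. All mice, controls included, had been given AAV9, and their age at surgery was not stated.

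Collagens are secreted proteins in which 3 chains wind into a triple helix. Fibrillar collagens (types I, III and V) form the fibers that give the heart wall its tensile strength, type IV collagen forms the sheet-like network of basement membranes around cardiomyocytes and vessels, and other types link, coat or organize these structures. In the heart, interstitial fibroblasts are the main source of fibrillar collagen, whereas endothelial and mural cells contribute much of the type IV collagen. Added fibrillar collagen in the wall, called fibrosis, is a known feature of pressure overload.

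Total counts ranged from 16441997 to 21904589 per mouse, and values are given as CPM (counts scaled to a common library size after TMM normalization), for which 3 counts, the floor used here, correspond to between 0.126 and 0.195 CPM. The floor covers counting error only. Values are listed in the order of the mouse numbers in the labels, which were 1, 2, 3 and 4 in both sham groups, 1, 3, 4 and 7 in AAV9-GFP TAC, and 1, 4, 5 and 6 in AAV9-Cardinal TAC. Cardinal itself was at 3.42 to 7.24 CPM in the 8 AAV9-GFP mice and at 18.3 to 93.9 CPM in the 8 AAV9-Cardinal mice, without overlap. The library AAV9-Cardinal TAC replicate 1 stood apart from the other 3 of its group. It was the highest of its group for 20 of the 32 collagens, against 31.1% of all 16857 genes tested. The same library had the highest Cardinal level (93.9 CPM, against 18.3 to 20.6 CPM in the other 3) and the highest summed level of 6 markers of activated fibroblasts (139 CPM, against 47.1 to 63.0 CPM). Many comparisons of TAC hearts are given with and without it, and values given only with it can also depend on it.

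The 12 collagens below the rule were Col2a1, Col6a4, Col6a5, Col8a2, Col9a1, Col9a3, Col10a1, Col11a1, Col17a1, Col19a1, Col24a1 and Col26a1. Among them, Col6a4, Col9a1 and Col19a1 had no count in any mouse, and Col8a2 reached the highest count in a single mouse, 27. All 32 analysed collagens passed the expression filter and were tested, but Col9a2 passed only through the 4 AAV9-GFP TAC mice, so it had to differ between groups.

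Per kilobase of exon, basement membrane collagens were the most abundant class in every group. Col4a1 (42.8 CPM per kb over the 16 mice) and Col4a2 (38.0 CPM per kb), which wind together into the main type IV network, made up 43.8% and 38.8% of the level of their class. Col15a1 (10.6 CPM per kb), a collagen that links basement membranes to the fibers next to them, and Col4a5 (4.29 CPM per kb) followed, and Col18a1, the precursor of endostatin, was at 0.917 CPM per kb. Among fibrillar chains, the order was Col3a1 (11.9 CPM per kb), Col1a1 (9.57 CPM per kb), Col1a2 (6.17 CPM per kb), Col5a1 (3.83 CPM per kb) and Col5a2 (2.71 CPM per kb). In the other class, Col6a1 (13.1 CPM per kb) and Col6a2 (6.73 CPM per kb), chains of the beaded filaments of type VI collagen, led, followed by Col8a1 (4.18 CPM per kb), Col6a3 (2.14 CPM per kb) and Col14a1 (1.36 CPM per kb). The order of neighbors depends on the length used, because the union of exons is 12426 bases for Col1a2 and its longest transcript 5348 bases, and 9816 and 5564 bases for Col3a1.

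The first comparison asked how pressure overload changed the collagens of hearts with the control virus. Of the 32 collagens, 21 rose, Col9a2 among them, and 1 fell after TAC in AAV9-GFP hearts (edgeR quasi-likelihood test, Benjamini-Hochberg adjusted over all 16857 genes), against a background of 8.49% of all genes tested that rose and 8.92% that fell. By class, 6 of 8 fibrillar, 7 of 8 basement membrane and 8 of 16 other collagens rose, and the gene that fell, Col6a6, was in the last class. The median log2 fold change was 1.01 over the 32 collagens, 1.06 for fibrillar, 0.85 for basement membrane and 0.90 for other collagens, and 0.01 over all genes, with the same medians when Col9a2 was set to its lower bound. Levels of the 4 TAC mice were above those of the 4 sham mice without overlap for 21 collagens and below for 1, against 10.1% and 10.2% of all genes. Without Col9a2, 20 rose and 20 did not overlap. In whole tissue, more cells of a type and more RNA per cell cannot be told apart.

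**Figure D1:**
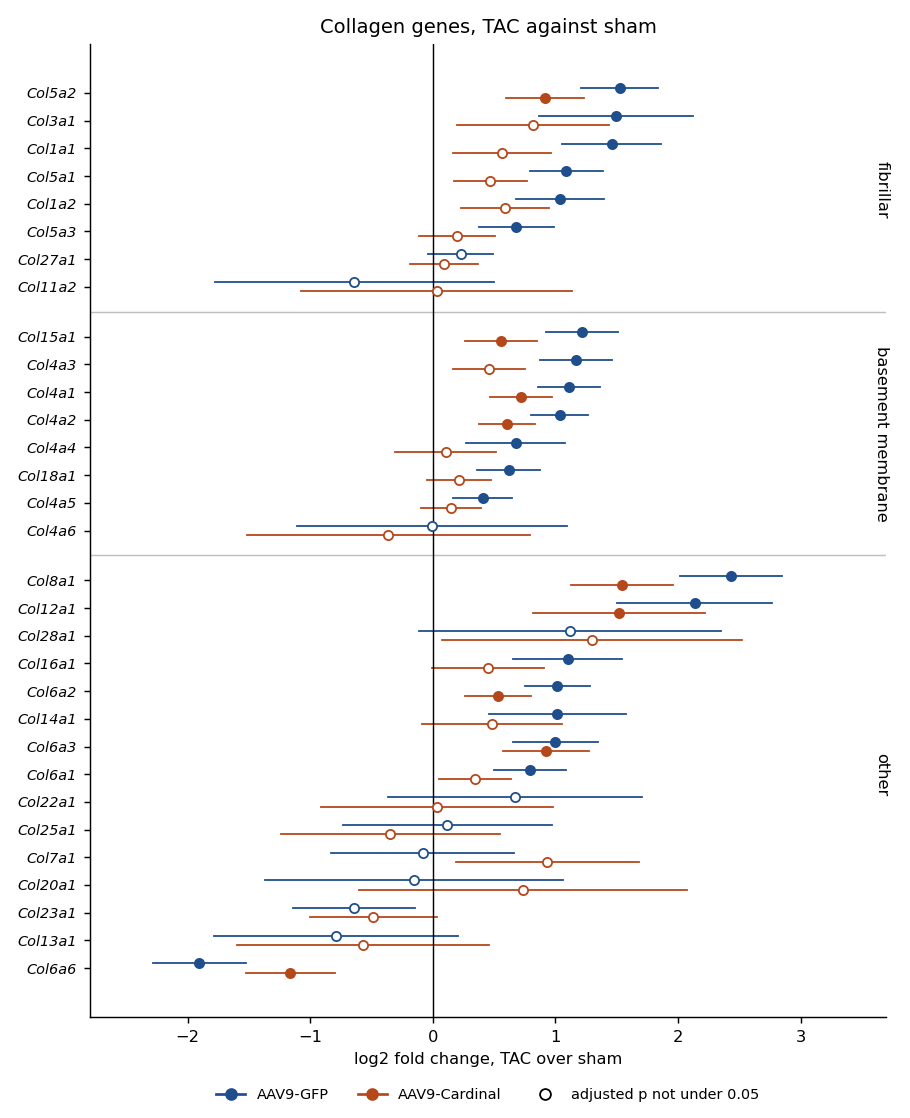
The log2 fold change of TAC over sham (horizontal axis) is plotted for 31 collagens, grouped by class, in AAV9-GFP (blue) and AAV9-Cardinal (orange) hearts, with points for edgeR estimates, lines for 95% confidence intervals and open points for an adjusted p not under 0.05. Most filled points lie to the right of 0 and Col6a6 lies to the left for both viruses. Col9a2 is left out because it had no counts in sham hearts.

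Type I collagen, the main collagen of scar and interstitial fibers, is built from the chains Col1a1 and Col1a2. Col1a1 was at 37.6, 38.7, 41.8 and 41.1 CPM in AAV9-GFP sham mice and at 112, 137, 91.7 and 97.0 CPM in AAV9-GFP TAC mice, and at 40.4, 39.6, 39.4 and 45.3 CPM in AAV9-Cardinal sham mice and 95.5, 46.0, 49.9 and 52.4 CPM in AAV9-Cardinal TAC mice. Every AAV9-GFP TAC mouse was at least at 91.7 CPM, while the AAV9-Cardinal TAC mice other than replicate 1 stayed close to their shams. The log2 fold change was 1.46 (SE 0.19, adjusted p = 0.00013) with AAV9-GFP and 0.57 (SE 0.19, adjusted p = 0.0881) with AAV9-Cardinal, where it was 0.27 (SE 0.11, adjusted p = 0.16) without replicate 1 of TAC. Col1a2 was at 54.8, 59.5, 58.7 and 56.3 CPM and 119, 131, 105 and 115 CPM in AAV9-GFP sham and TAC mice, and at 63.3, 48.3, 49.7 and 49.5 CPM and 121, 60.8, 68.4 and 67.2 CPM in AAV9-Cardinal sham and TAC mice. With AAV9-GFP it changed by 1.04 (SE 0.17, adjusted p = 0.000747) on the log2 scale, and by 0.59 (SE 0.17, adjusted p = 0.0505) with AAV9-Cardinal, where 1 TAC mouse lay inside the sham range. Without replicate 1 of TAC, the value with AAV9-Cardinal was 0.32 (SE 0.09, adjusted p = 0.0506).

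Type III collagen, the product of Col3a1, forms thin fibers together with type I. Col3a1 was at 58.1, 73.7, 79.2 and 71.1 CPM in AAV9-GFP sham and 229, 231, 172 and 162 CPM in AAV9-GFP TAC mice. In AAV9-Cardinal hearts the values were 78.7, 69.9, 71.6 and 65.7 CPM in sham and 249.2, 75.3, 87.5 and 92.5 CPM in TAC mice. Replicate 1 of the last group was the highest of all 16 mice, whereas replicate 4 lay within the range of the shams. For Col3a1 the log2 fold change was 1.49 (SE 0.29, adjusted p = 0.00277) with AAV9-GFP and 0.82 (SE 0.29, adjusted p = 0.111) with AAV9-Cardinal. Without replicate 1 of AAV9-Cardinal TAC, the second value was 0.25 (SE 0.13, adjusted p = 0.266).

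Type V collagen sits in the core of type I fibers and sets their diameter. Col5a1 was at 20.9, 23.6, 24.8 and 25.2 CPM in AAV9-GFP sham and 50.7, 54.1, 49.2 and 47.0 CPM in AAV9-GFP TAC mice, and at 25.0, 25.1, 23.6 and 20.5 CPM and 46.1, 26.8, 27.7 and 29.8 CPM in the AAV9-Cardinal groups, with a log2 fold change of 1.09 (SE 0.14, adjusted p = 0.000116) and 0.47 (SE 0.14, adjusted p = 0.0595), the latter 0.26 (SE 0.08, adjusted p = 0.0709) without replicate 1 of TAC. Col5a2 was at 15.2, 15.2, 17.3 and 14.5 CPM and 41.0, 49.7, 39.9 and 47.9 CPM in AAV9-GFP sham and TAC mice, and at 16.2, 15.2, 15.3 and 13.9 CPM and 41.0, 23.2, 25.7 and 24.3 CPM in AAV9-Cardinal sham and TAC mice. It was the only fibrillar collagen called with both viruses, with a log2 fold change of 1.52 (SE 0.15, adjusted p = 1.72e-05) with AAV9-GFP and 0.91 (SE 0.15, adjusted p = 0.0042) with AAV9-Cardinal. Col5a3, the least abundant type V chain, was at 6.01, 9.27, 10.1 and 7.53 CPM and 11.4, 14.6, 11.2 and 15.5 CPM in AAV9-GFP hearts, and at 9.53, 8.74, 10.95 and 8.37 CPM and 10.3, 10.8, 10.9 and 11.1 CPM in AAV9-Cardinal hearts. TAC and sham mice overlapped for Col5a3 with AAV9-Cardinal (log2 fold change 0.20, SE 0.15, adjusted p = 0.483) and not with AAV9-GFP (log2 fold change 0.68, SE 0.15, adjusted p = 0.00458). The remaining fibrillar chains, Col11a2 and Col27a1, did not pass the test with either virus. Their log2 fold changes in AAV9-GFP hearts were -0.64 (SE 0.53) and 0.23 (SE 0.13). The Col11a2 value includes a count of 0 in AAV9-GFP TAC replicate 1, where every other mouse had at least 32 counts. It ranged from -1.20 to -0.22 over the alternatives.

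**Figure D2:**
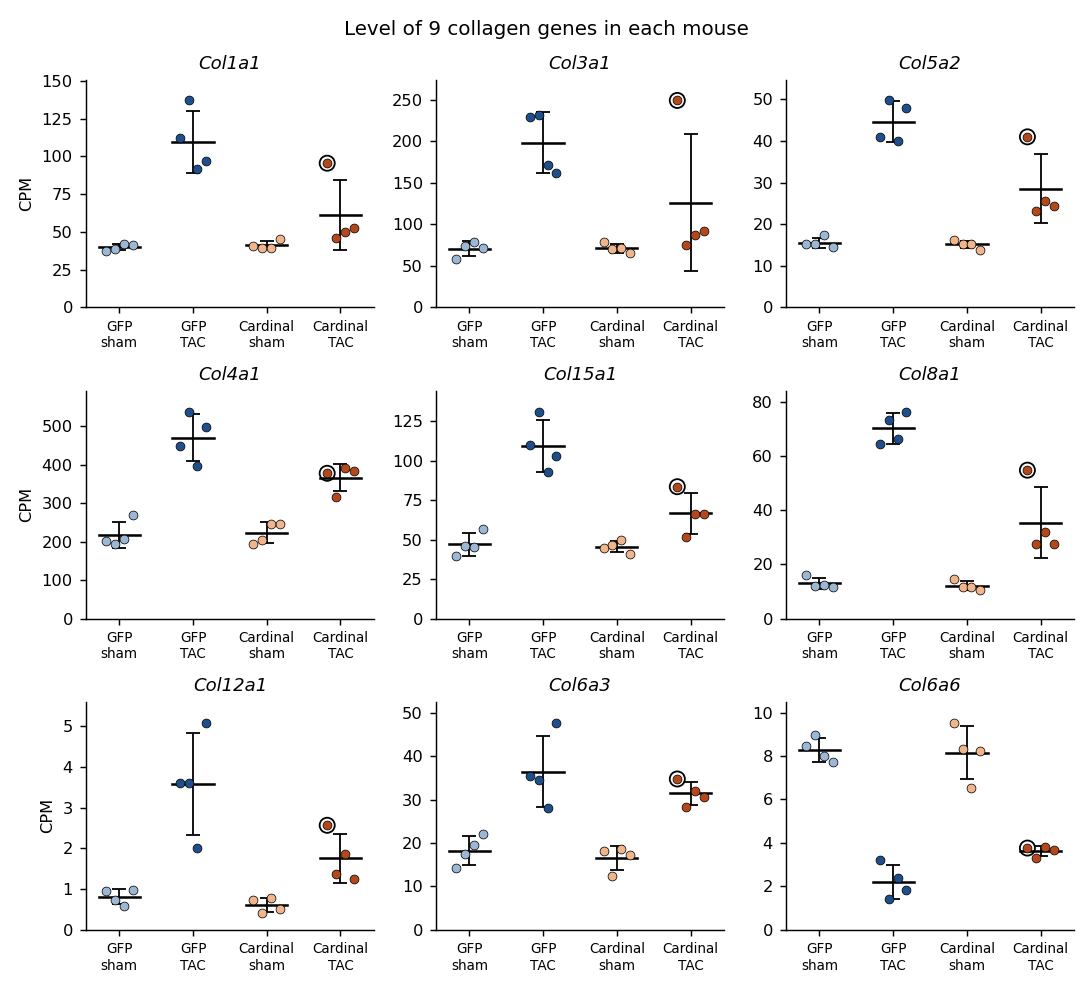
Levels in CPM (vertical axes) are shown for 9 collagens in each mouse of the 4 groups, with horizontal bars for group means and vertical bars for the SD (n = 4). A ring marks AAV9-Cardinal TAC replicate 1, which reaches 249.2 CPM for Col3a1 where the other 3 mice of its group lie between 75.3 and 92.5 CPM, and Col6a6 is lower in both TAC groups.

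Col4a1 and Col4a2 lie head to head on chromosome 8 of GRCm38 (11198423 to 11312826 on the minus strand and 11312805 to 11449287 on the plus strand), and their annotated starts overlap by 22 bases. Col4a1 was at 202, 195, 206 and 269 CPM in AAV9-GFP sham and 449, 539, 398 and 499 CPM in AAV9-GFP TAC mice, and at 195, 204, 247 and 246 CPM and 378, 315, 391 and 384 CPM in the AAV9-Cardinal groups. The TAC mice were above the shams without overlap for both viruses, and the log2 fold change was 1.11 (SE 0.12, adjusted p = 3.63e-05) with AAV9-GFP and 0.72 (SE 0.12, adjusted p = 0.00435) with AAV9-Cardinal. Col4a2 followed the same order, at 168, 167, 172 and 214 CPM and 382, 411, 319 and 363 CPM with AAV9-GFP and 153, 175, 200.2 and 198 CPM and 291, 236, 279 and 297 CPM with AAV9-Cardinal. Its log2 fold change was 1.03 (SE 0.11, adjusted p = 2.75e-05) and 0.60 (SE 0.11, adjusted p = 0.00591). For both genes, replicate 1 of AAV9-Cardinal TAC lay within the range of the other 3 mice of its group.

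The rarer type IV chains come in 2 further head-to-head pairs, Col4a3 and Col4a4 on chromosome 1, 71 bases apart, and Col4a5 and Col4a6 on the X chromosome, 1308 bases apart. Col4a3 was at 2.22, 3.03, 2.69 and 2.79 CPM and 5.10, 5.79, 7.35 and 5.87 CPM in AAV9-GFP sham and TAC mice, and at 3.07, 3.25, 3.22 and 3.24 CPM and 5.44, 4.28, 4.33 and 3.55 CPM in AAV9-Cardinal sham and TAC mice, a log2 fold change of 1.17 (SE 0.14, adjusted p = 6.17e-05) and 0.46 (SE 0.14, adjusted p = 0.0596). Without replicate 1 of TAC, the second value was 0.34 (SE 0.13, adjusted p = 0.126). Of the exon bases of Col4a3, 5.65% overlap a gene on the opposite strand, C430014B12Rik, from which its reads could not be told apart without strand. Col4a4 was at 6.34, 7.01, 5.93 and 5.96 CPM and 11.1, 10.9, 11.5 and 6.91 CPM in AAV9-GFP hearts and at 7.77, 6.09, 7.69 and 6.62 CPM and 11.2, 6.91, 5.73 and 6.49 CPM in AAV9-Cardinal hearts. It was called with AAV9-GFP (log2 fold change 0.67, SE 0.19, adjusted p = 0.0239) although AAV9-GFP TAC replicate 7 lay within the sham range, and not with AAV9-Cardinal (log2 fold change 0.11, SE 0.19, adjusted p = 0.821), where the value without replicate 1 of TAC was -0.14 (SE 0.16, adjusted p = 0.647). The call was lost when any of 6 single AAV9-GFP mice was left out. Col4a5 was at 26.4, 24.7, 27.2 and 22.7 CPM and 37.3, 34.4, 33.1 and 29.0 CPM with AAV9-GFP and 27.2, 25.2, 28.3 and 26.3 CPM and 38.0, 24.6, 29.4 and 26.6 CPM with AAV9-Cardinal. With a log2 fold change of 0.40 (SE 0.11, adjusted p = 0.0224), it had the smallest rise among the collagens called with AAV9-GFP, and it was not called with AAV9-Cardinal (log2 fold change 0.15, SE 0.11, adjusted p = 0.502), where the value was 0.01 (SE 0.09, adjusted p = 0.974) without replicate 1 of TAC. Col4a6 was at or under 1.24 CPM in all mice, with a log2 fold change of -0.01 (SE 0.52) in AAV9-GFP hearts.

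Col15a1 and Col18a1 are relatives that carry both collagen stretches and a cleavable end domain. Col15a1 was at 39.9, 45.9, 45.4 and 56.8 CPM and 110.2, 131, 92.5 and 103 CPM in AAV9-GFP sham and TAC mice, and at 44.7, 46.5, 49.6 and 41.1 CPM and 83.5, 51.8, 65.9 and 65.9 CPM in AAV9-Cardinal sham and TAC mice. TAC and sham mice did not overlap with either virus, and the log2 fold change was 1.22 (SE 0.14, adjusted p = 5.08e-05) with AAV9-GFP, the largest estimate of the basement membrane class, and 0.55 (SE 0.14, adjusted p = 0.0294) with AAV9-Cardinal. The second of these calls was lost without any of 6 single AAV9-Cardinal mice, replicate 1 of TAC among them (adjusted p up to 0.0789). Without replicate 1, the log2 fold change was 0.43 (SE 0.13, adjusted p = 0.0565). Col18a1 was at 5.58, 6.15, 6.27 and 4.50 CPM and 9.43, 8.31, 8.79 and 8.04 CPM with AAV9-GFP and 5.60, 4.74, 5.77 and 5.19 CPM and 7.35, 4.93, 6.38 and 6.03 CPM with AAV9-Cardinal, a log2 fold change of 0.62 (SE 0.12, adjusted p = 0.00249) and 0.21 (SE 0.12, adjusted p = 0.342), the latter 0.12 (SE 0.12, adjusted p = 0.614) without replicate 1 of TAC.

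Col8a1, a chain of the network-forming type VIII collagen of vessel walls, had the largest estimated rise with both viruses among the collagens with counts in sham hearts. It was at 15.99, 12.0, 12.2 and 11.8 CPM in AAV9-GFP sham and 64.7, 73.5, 66.5 and 76.5 CPM in AAV9-GFP TAC mice, and at 14.6, 11.8, 11.5 and 10.6 CPM in AAV9-Cardinal sham and 54.9, 27.5, 32.1 and 27.4 CPM in AAV9-Cardinal TAC mice. All AAV9-Cardinal TAC mice were between the shams and the AAV9-GFP TAC mice. In log2 fold change this was 2.43 (SE 0.20, adjusted p = 4.72e-06), or 5.398-fold, with AAV9-GFP and 1.54 (SE 0.19, adjusted p = 0.000953), or 2.92-fold, with AAV9-Cardinal. Its partner Col8a2 was among the collagens below the rule.

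Among fibril-associated collagens, which decorate the surface of fibers, Col12a1 and Col14a1 are close relatives. Col12a1 was at 0.946, 0.720, 0.588 and 0.978 CPM and 3.6003, 3.61, 2.01 and 5.09 CPM in AAV9-GFP sham and TAC mice, and at 0.723, 0.418, 0.769 and 0.519 CPM and 2.57, 1.36, 1.86 and 1.24 CPM in AAV9-Cardinal sham and TAC mice. Both viruses gave a rise without overlap from a low level, with a log2 fold change of 2.14 (SE 0.30, adjusted p = 0.000219) and 1.52 (SE 0.33, adjusted p = 0.0158). The second value was 1.28 (SE 0.33, adjusted p = 0.0287) without replicate 1 of TAC. Col14a1 was at 7.47, 8.07, 7.84 and 5.67 CPM and 12.6, 17.3, 15.2 and 13.6 CPM with AAV9-GFP, and at 7.64, 5.99, 7.59 and 5.97 CPM and 17.5, 6.25, 7.45 and 6.77 CPM with AAV9-Cardinal. It rose with AAV9-GFP (log2 fold change 1.01, SE 0.26, adjusted p = 0.0144), and with AAV9-Cardinal it was high in replicate 1 of TAC while the other 3 mice lay within the sham range (log2 fold change 0.48, SE 0.27, adjusted p = 0.32), and without that mouse the value was 0.00 (SE 0.14, adjusted p = 0.995). Col16a1 was at 3.78, 3.99, 5.05 and 4.84 CPM and 9.64, 11.3, 8.14 and 8.74 CPM in AAV9-GFP hearts, and at 5.83, 4.41, 4.23 and 3.698 CPM and 9.34, 4.14, 5.17 and 6.31 CPM in AAV9-Cardinal hearts, with a log2 fold change of 1.1004 (SE 0.21, adjusted p = 0.00214) and 0.45 (SE 0.21, adjusted p = 0.233). For Col16a1 the second value was 0.19 (SE 0.18, adjusted p = 0.577) without replicate 1 of TAC.

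Col9a2, a chain of the type IX collagen of cartilage, had no count in any of the 8 sham mice and 13 to 20 counts in each AAV9-GFP TAC mouse (0.686, 0.839, 0.569 and 0.652 CPM). In AAV9-Cardinal TAC it had 5 counts in replicate 1 and none in the other 3 mice. Against the floor of 3 counts per library, its level was at least 4.74-fold higher in AAV9-GFP TAC than in AAV9-GFP sham hearts. The fitted fold change is not given, since it depends on the prior count. Its partners Col9a1 and Col9a3 were below the rule. Of 4 markers of cartilage, Matn1 had no count in any mouse, and Sox9, the only one that passed the filter, rose in both viruses (log2 fold changes of 2.34 and 1.25). Whether cartilage-like tissue played a part was not tested.

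Type VI collagen is assembled from Col6a1, Col6a2 and another chain, often Col6a3 or a relative such as Col6a6. Col6a1 was at 39.0, 46.7, 46.1 and 52.7 CPM in AAV9-GFP sham and 78.1, 86.4, 78.1 and 77.0 CPM in AAV9-GFP TAC mice, and at 46.9, 44.7, 45.5 and 44.8 CPM and 80.9, 45.4, 49.5 and 54.7 CPM in the AAV9-Cardinal groups, a log2 fold change of 0.79 (SE 0.14, adjusted p = 0.00117) and 0.34 (SE 0.14, adjusted p = 0.159), the latter 0.14 (SE 0.09, adjusted p = 0.368) without replicate 1 of TAC. Col6a2 was at 33.9, 42.4, 41.4 and 48.7 CPM and 85.2, 87.4, 80.01 and 83.9 CPM with AAV9-GFP, and at 41.2, 38.1, 41.2 and 40.5 CPM and 77.7, 49.4, 55.2 and 50.1 CPM with AAV9-Cardinal. It was called with both viruses, with 1.02 (SE 0.13, adjusted p = 9.05e-05) and 0.53 (SE 0.13, adjusted p = 0.024), and the second call was lost without any of 4 single AAV9-Cardinal mice. Without replicate 1 of TAC, the second value was 0.36 (SE 0.09, adjusted p = 0.0247). Col6a3 was at 14.1, 17.3, 19.5 and 21.996 CPM and 35.4, 34.4, 28.1 and 47.7 CPM in AAV9-GFP hearts, and at 18.2, 12.5, 18.5 and 17.1 CPM and 34.7, 28.4, 31.9 and 30.7 CPM in AAV9-Cardinal hearts. Its rise had nearly the same estimate with both viruses, 1.00 (SE 0.16, adjusted p = 0.000747) and 0.93 (SE 0.16, adjusted p = 0.00591), with a difference of -0.07 (95% confidence interval -0.56 to 0.42), and it did not depend on replicate 1 of AAV9-Cardinal TAC, without which the log2 fold change was 0.88 (adjusted p = 0.011).

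Col6a6 went the other way. It was at 8.47, 8.98, 7.99 and 7.72 CPM in AAV9-GFP sham and 3.21, 1.43, 2.36 and 1.83 CPM in AAV9-GFP TAC mice, and at 9.53, 8.32, 6.53 and 8.24 CPM in AAV9-Cardinal sham and 3.76, 3.29, 3.82 and 3.68 CPM in AAV9-Cardinal TAC mice. All 8 TAC mice were below all 8 shams, and all 4 AAV9-Cardinal TAC mice were above all 4 AAV9-GFP TAC mice. Its log2 fold change was -1.91 (SE 0.18, adjusted p = 1.28e-05) with AAV9-GFP and -1.16 (SE 0.17, adjusted p = 0.00203) with AAV9-Cardinal, and both calls held when any single mouse was left out. Of its 50-base stretches, 3.7% also occur in another gene, most in its neighbor Col6a5, which reached 14 counts at most in a mouse.

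Promoter windows are shown for Col8a1, with the largest estimated rise among the collagens with counts in sham hearts, and for Col6a6, which fell. Windows of Col3a1 and Col5a1, 2 of the fibrillar chains that rose, are shown too. These 2 were chosen after their values were seen, from windows without an annotated exon. The windows shown differ in base composition and in short motifs. RefSeq windows on GRCm38.p6 (250 bases before to 50 after the start) were matched for 26 of the 32 collagens. Not matched were Col1a1, Col4a3, Col5a2, Col12a1, Col14a1 and Col22a1. The bases before the start are printed 5′ to 3′ on the gene's strand, for Col6a6 only the 175 bases outside annotated exons. Capitals mark 6 motifs on either strand, the CCAAT box (CCAAT), the GC box (GGGCGG), the TATA box (TATAAA), a Smad element (CAGACA), the AP-1 site (TGACTCA) and the M-CAT element (CATTCC), none of which contains another. The windows are chr16:57754738-57754987 (minus strand) for Col8a1, chr1:45311288-45311537 (plus strand) for Col3a1, chr2:27886175-27886424 (plus strand) for Col5a1 and chr9:105828161-105828335 (minus strand) for Col6a6.
Col8a1: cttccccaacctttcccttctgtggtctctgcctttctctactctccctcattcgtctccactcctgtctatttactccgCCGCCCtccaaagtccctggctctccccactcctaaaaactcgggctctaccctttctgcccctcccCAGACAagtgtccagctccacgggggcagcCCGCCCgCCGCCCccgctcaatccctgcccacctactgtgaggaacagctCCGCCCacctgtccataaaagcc
Col3a1: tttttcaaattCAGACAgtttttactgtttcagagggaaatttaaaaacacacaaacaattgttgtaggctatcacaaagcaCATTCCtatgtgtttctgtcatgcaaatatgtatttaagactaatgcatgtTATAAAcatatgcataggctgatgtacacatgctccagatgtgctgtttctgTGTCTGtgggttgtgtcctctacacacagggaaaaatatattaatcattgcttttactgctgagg
Col5a1: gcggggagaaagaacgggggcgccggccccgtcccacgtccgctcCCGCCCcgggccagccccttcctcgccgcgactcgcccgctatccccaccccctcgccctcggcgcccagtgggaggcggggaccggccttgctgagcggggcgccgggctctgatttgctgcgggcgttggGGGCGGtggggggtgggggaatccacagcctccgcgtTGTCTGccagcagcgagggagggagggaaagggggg
Col6a6: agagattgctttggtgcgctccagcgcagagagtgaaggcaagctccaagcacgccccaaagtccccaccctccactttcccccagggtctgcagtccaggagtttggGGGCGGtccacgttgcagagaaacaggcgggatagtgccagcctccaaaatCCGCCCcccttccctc
The Col8a1 window holds 4 GC boxes and 1 Smad element, and 60.8% of its bases are G or C. In Col3a1, with 35.2% G or C, there is no GC box, but 1 TATA box, 2 Smad elements and 1 M-CAT element. Col5a1 (76.4% G or C) holds 2 GC boxes and 1 Smad element. In Col6a6, which fell after TAC, the printed stretch holds 2 GC boxes and none of the other motifs. Over the whole windows, 18 of the 26 matched collagens held a GC box, against 35.7% of all 32851 promoter windows of 300 bases, and 9 held the Smad letters, against 21% of all windows. The CCAAT box was found in 9 of the 26 (37.4% of all windows), the TATA box in 3 (13.6%), the M-CAT element in 5 (14.7%) and the AP-1 site in 1 (5.2%). A collagen was counted if any of its windows held the motif (Col18a1 and Col6a2 had more than 1), whereas the shares are of single windows. These matches describe letters and not bound sites.

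In AAV9-Cardinal hearts, the same comparison asked how pressure overload acted when Cardinal was overexpressed. After TAC, 8 of the 32 collagens rose and 1 fell, against 3.1% of all genes that rose and 3.38% that fell. Those that rose were Col5a2 among fibrillar collagens, Col4a1, Col4a2 and Col15a1 in the basement membrane class, and Col6a2, Col6a3, Col8a1 and Col12a1 among the others, and Col6a6 fell. When the mouse number was added to the fit as a block, 3 collagens were called, 2 higher and 1 lower. The median log2 fold change was 0.47 over the 32 collagens and -0.00 over all genes. TAC mice were above shams without overlap for 12 collagens and below for 2, against 6.51% and 7.21% of all genes. All 8 genes that rose had also risen with AAV9-GFP, which is all of the 8 and 38.1% of the 21. The 21, which were chosen by their AAV9-GFP values, had a positive and smaller estimate with AAV9-Cardinal. Of all 1431 genes that rose with AAV9-GFP, 90.8% had a positive and 89.9% a smaller estimate with AAV9-Cardinal, and 25% rose there too. Without replicate 1 of TAC, Col8a1 stayed at a log2 fold change of 1.26 (SE 0.12, adjusted p = 0.000286), Col5a2 at 0.69 (SE 0.09, adjusted p = 0.00165) and Col4a1 at 0.71 (SE 0.13, adjusted p = 0.00761).

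Set directly against each other after TAC, AAV9-Cardinal and AAV9-GFP hearts gave no collagen past the threshold. With the edgeR test, 0 of 32 were called in either direction, against 0.0237% of all genes called higher and 0.0771% called lower in AAV9-Cardinal. At an unadjusted p under 0.05, 19 collagens were lower and 1 higher, against 7.42% and 7.58% of all genes, and the median log2 fold change was -0.41 over the collagens and -0.01 over all genes. The 4 AAV9-Cardinal TAC mice were all below the 4 AAV9-GFP TAC mice for 9 collagens (Col4a1, Col4a2, Col5a1, Col5a3, Col6a2, Col8a1, Col9a2, Col15a1 and Col18a1) and above for Col6a6, against 3.19% and 3.58% of all genes. Without Col9a2, 18 were lower at an unadjusted p under 0.05 and 8 were lower without overlap. Col8a1 came closest to the threshold, with a log2 fold change of -0.99 (SE 0.18) and an adjusted p of 0.0503 that ranged from 9.51e-05 to 0.426 over the alternatives, 7 of 27 under 0.05. Col15a1 (log2 fold change -0.71, SE 0.14, adjusted p = 0.0551), Col1a1 (log2 fold change -0.84, SE 0.19, adjusted p = 0.0752) and Col5a1 (log2 fold change -0.62, SE 0.14, adjusted p = 0.0752) followed.

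The count in this comparison changed most when replicate 1 of AAV9-Cardinal TAC was left out. That mouse was singled out for its high collagen values, so leaving it out lowers most collagens of its group by construction. Without it, 16 collagens were lower and 0 higher in AAV9-Cardinal TAC hearts, against 1.64% and 1.49% of all genes tested, and 15 were lower with Col9a2 not counted. Log2 fold changes were then -1.27 (SE 0.12, adjusted p = 9.51e-05) for Col8a1, -1.22 (SE 0.14, adjusted p = 0.000342) for Col3a1, -1.14 (SE 0.11, adjusted p = 0.000157) for Col1a1 and -0.87 (SE 0.09, adjusted p = 0.000164) for Col5a2. The 16 also held basement membrane collagens, Col15a1 (-0.83, SE 0.13, adjusted p = 0.00606) and Col18a1 (-0.58, SE 0.12, adjusted p = 0.0208). The type IV chains Col4a3 (-0.57, SE 0.13, adjusted p = 0.0278) and Col4a4 (-0.66, SE 0.15, adjusted p = 0.0342) were among them too. The more abundant type IV chains Col4a1 and Col4a2 stayed above the threshold, at -0.37 (SE 0.13, adjusted p = 0.14) and -0.44 (SE 0.12, adjusted p = 0.058). Col4a5 and Col4a6 were not called either. DESeq2 with all 16 mice called 10 collagens lower and 1, Col6a6, higher, among the 21 to which it gave an adjusted p. Of the 11514 genes to which it gave one, 1.42% were called lower and 2.44% higher. Leaving out AAV9-GFP TAC replicate 1 gave 2 calls (Col8a1 lower and Col6a6 higher) and leaving out AAV9-GFP TAC replicate 4 gave 3, all lower (Col8a1, Col12a1 and Col15a1).

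**Figure D3:**
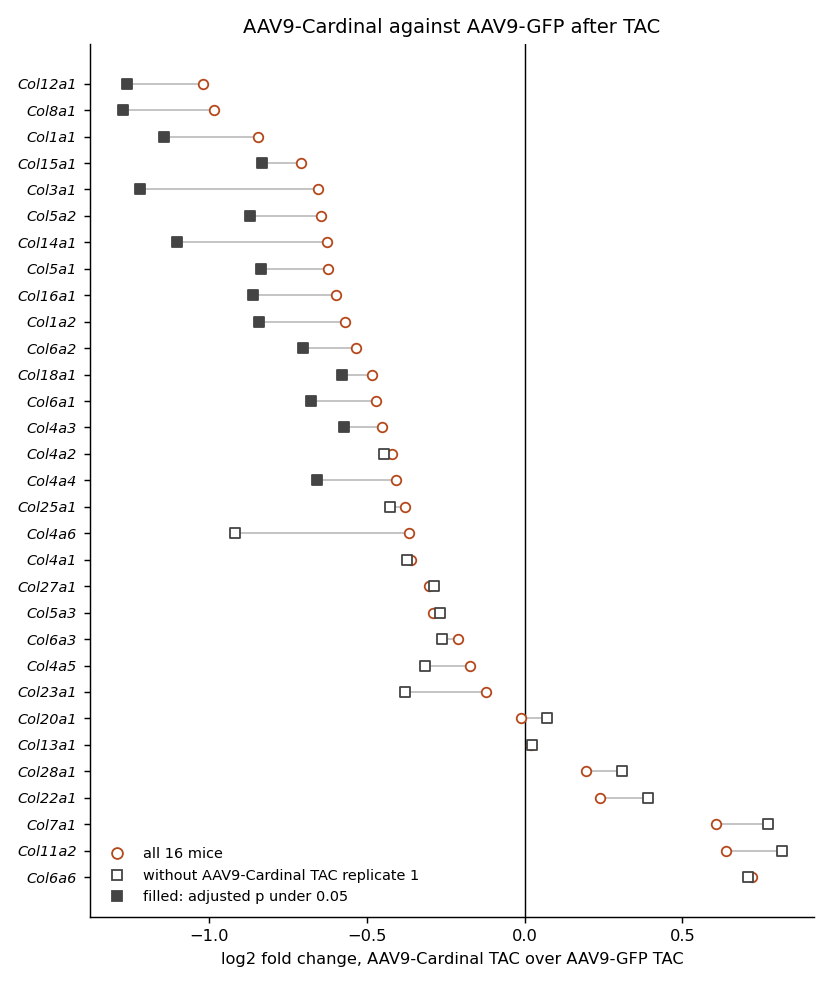
The log2 fold change of AAV9-Cardinal TAC over AAV9-GFP TAC (horizontal axis) is plotted for 31 collagens from all 16 mice (circles) and without AAV9-Cardinal TAC replicate 1 (squares, filled where the adjusted p was under 0.05). No circle is filled, and 15 squares are, all left of 0. Col9a2 is not drawn.

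The difference between the TAC responses was tested as an interaction. It gave 0 of 32 collagens past the threshold with edgeR, against 0.00593% of all genes in each direction, and at an unadjusted p under 0.05 it gave 13 with a smaller and 1 with a larger value in AAV9-Cardinal, against 5.21% and 5.01% of all genes. Col1a1 had a difference of -0.89 (SE 0.26, adjusted p = 0.309), Col8a1 of -0.89 (SE 0.27, adjusted p = 0.312) and Col15a1 of -0.66 (SE 0.19, adjusted p = 0.309). DESeq2 called these 3 genes, all negative, among the 10 collagens to which it gave an adjusted p. Of the 3281 genes to which it gave one, 0.64% were called negative and 3.81% positive. Leaving out AAV9-Cardinal TAC replicate 1, which was singled out for its high collagen values, makes most collagen differences more negative by construction. Without it, edgeR called 9 collagens, all negative, against 0.252% of all genes called negative and 0.211% positive. These were Col1a1, Col1a2, Col3a1, Col5a1, Col5a2, Col6a1, Col6a2, Col8a1 and Col14a1, with no basement membrane collagen among them. With no mouse left out, however, the edgeR estimates of all 8 basement membrane collagens were negative. Of these, 5 had an unadjusted p under 0.05. Among the 8 fibrillar collagens, 7 estimates were negative and 4 had an unadjusted p under 0.05, all negative. Col15a1, called by DESeq2, is a basement membrane collagen. The 9 calls therefore do not show that this class was spared. The interaction shares its TAC mice with the direct comparison.

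In sham hearts, no collagen differed between the viruses at the threshold. With edgeR, 0 of 32 were called, against 0.00593% of all genes in each direction, and 0 had an unadjusted p under 0.05, against 1.45% of all genes higher and 1.14% lower, and DESeq2 also called 0. Groups did not overlap for 1 collagen, Col4a3, which was at 3.07 to 3.25 CPM in AAV9-Cardinal and 2.22 to 3.03 CPM in AAV9-GFP shams, against 1.2% of all genes higher and 1.16% lower. The median log2 fold change was -0.02. Col1a1 had an estimate of 0.05 (SE 0.19), with a 95% confidence interval of -0.36 to 0.45, and Col8a1 of -0.10 (SE 0.20), with an interval of -0.52 to 0.33.

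Summed over the members of a class, the level per kb of exon shows the same groups on a common scale and is given without a test. Fibrillar collagens summed to 24.2 ± 1.94 CPM per kb (SD, n = 4) in AAV9-GFP sham and 59.5 ± 7.97 CPM per kb in AAV9-GFP TAC hearts, a ratio of 2.46. With AAV9-Cardinal the sums were 24.2 ± 1.21 CPM per kb in sham and 37.6 ± 15.9 CPM per kb in TAC hearts, a ratio of 1.55, which was 1.23 without replicate 1 of TAC. Basement membrane collagens went from 69.4 ± 8.69 to 143.9 ± 15.9 CPM per kb with AAV9-GFP, a ratio of 2.07, and from 70.3 ± 7.09 to 107.9 ± 11.1 CPM per kb with AAV9-Cardinal, a ratio of 1.53, or 1.49 without replicate 1. The other collagens had ratios of 2.03 and 1.44, the latter 1.26 without replicate 1. The fibrillar sum of that mouse was 61.4 CPM per kb, against 27.5 to 31.3 CPM per kb in the other 3, while its basement membrane sum of 116.2 CPM per kb was next to theirs, 91.6 to 112.4 CPM per kb. Col4a1 and Col4a2 together made up 54.0% to 56.0% of the collagen level in those 3 mice, 42.8% in replicate 1, 46.2% to 49.6% in AAV9-GFP TAC hearts and 44.2% to 52.6% in the 8 shams. Collagen genes took 0.0762% to 0.0912% of all counts in sham and 0.105% to 0.227% in TAC mice.

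**Figure D4:**
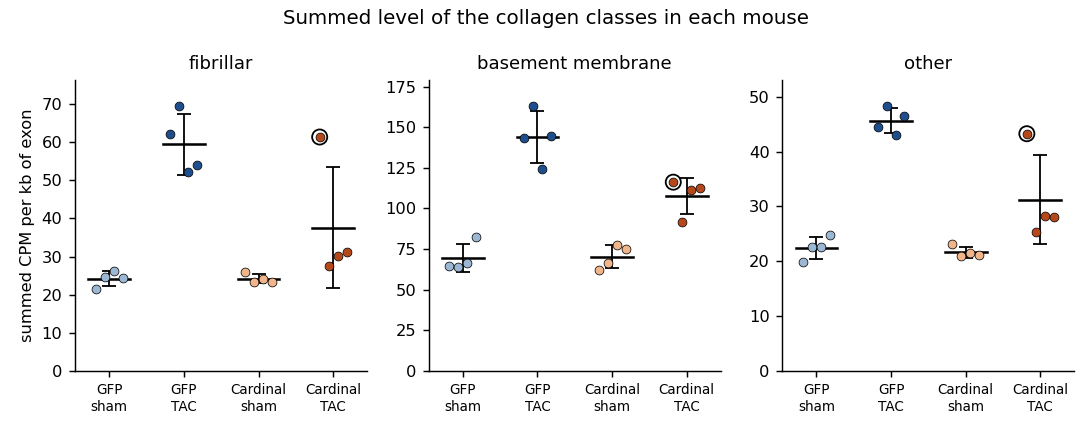
The summed level of fibrillar, basement membrane and other collagens in CPM per kb of exon (vertical axes) is plotted for each mouse of the 4 groups, with horizontal bars for means and vertical bars for the SD (n = 4). The ringed mouse, AAV9-Cardinal TAC replicate 1, is far above its group in the fibrillar panel (61.4) and close to it in the basement membrane panel (116.2).

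The ratio of Col3a1 to Col1a1, the chains of the main fiber-forming types, was tested as a measure that does not depend on library size. Per kb it was 1.18 ± 0.113 (SD, n = 4) in AAV9-GFP sham, 1.22 ± 0.118 in AAV9-GFP TAC, 1.17 ± 0.141 in AAV9-Cardinal sham and 1.30 ± 0.30 in AAV9-Cardinal TAC hearts. In an exact two-sided permutation test of the mean log2 ratio, TAC and sham differed by 0.04 with AAV9-GFP (p = 0.71) and by 0.14 with AAV9-Cardinal (p = 0.6). The viruses differed by 0.07 after TAC (exact p = 0.8) and by -0.02 after sham surgery (exact p = 0.8). Adjusted over the 4 comparisons, each exact p was 0.8, and the smallest that 4 mice against 4 allow is 0.029. The highest ratio, 1.74, was that of AAV9-Cardinal TAC replicate 1, and without that mouse the difference to sham was -0.01.

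Other chain ratios, chosen after the levels were seen and given without a test, moved more. The ratio of Col1a2 to Col1a1 was 0.507 to 0.626 in AAV9-GFP TAC and 0.723 to 0.812 in AAV9-GFP sham mice, without overlap. With AAV9-Cardinal, the TAC mice (0.667 to 0.724) lay within the sham range (0.577 to 0.827). Col5a2 to Col5a1 was higher after TAC with both viruses, at 0.716 to 0.903 and 0.722 to 0.821, than in the 8 shams, at 0.509 to 0.644. Col6a2 to Col6a1 was 0.532 to 0.573 in AAV9-GFP TAC mice against 0.457 to 0.486 in their shams. In AAV9-Cardinal mice it was also higher without overlap, at 0.482 to 0.586 after TAC against 0.448 to 0.477 in shams. In AAV9-Cardinal hearts, Col6a3 to Col6a1 was 0.157 to 0.236 after TAC and 0.102 to 0.149 after sham surgery, with the lowest TAC value in replicate 1. With AAV9-GFP, the TAC mice (0.132 to 0.227) overlapped the shams (0.133 to 0.155) for this ratio. Col4a2 to Col4a1 stayed between 0.806 and 0.968 in all 16 mice. Within this range, the AAV9-Cardinal TAC mice (0.806 to 0.873) were all below their shams (0.888 to 0.968). The AAV9-GFP TAC mice (0.821 to 0.960) overlapped their shams (0.897 to 0.965).

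**Figure D5:**
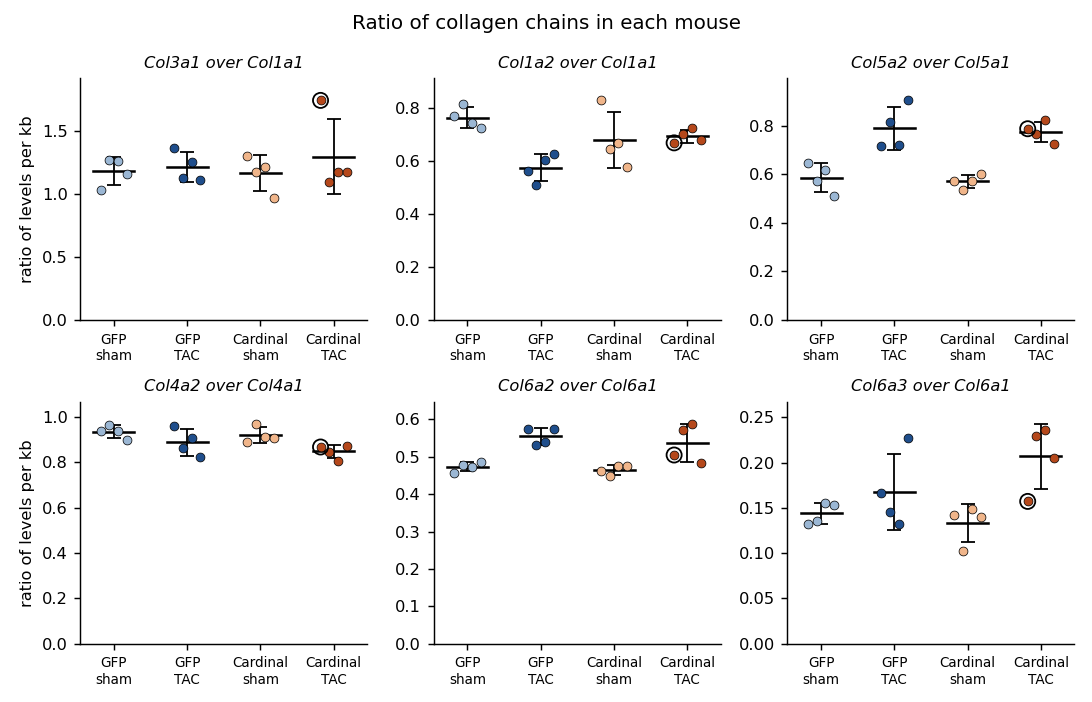
The ratio of levels per kb (vertical axes) is plotted for 6 pairs of collagen chains in each mouse of the 4 groups, with horizontal bars for means and vertical bars for the SD (n = 4) and a ring for AAV9-Cardinal TAC replicate 1. Col1a2 over Col1a1 is lower in AAV9-GFP TAC (0.507 to 0.626) than in AAV9-GFP sham mice (0.723 to 0.812), and Col5a2 over Col5a1 is higher in both TAC groups.

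The remaining 10 collagens were rare and passed the test in no comparison. They were Col4a6, Col7a1, Col11a2, Col13a1, Col20a1, Col22a1, Col23a1, Col25a1, Col27a1 and Col28a1, with means over 16 mice from 0.383 CPM (Col25a1) to 4.26 CPM (Col27a1). Col28a1 was higher in TAC than in sham mice without overlap for both viruses, at 0 to 1.03 against 1.16 to 2.09 CPM with AAV9-GFP and at 0 to 1.31 against 1.33 to 2.14 CPM with AAV9-Cardinal (adjusted p = 0.215 and 0.199). Col23a1, a transmembrane collagen, had a log2 fold change of -0.64 (SE 0.23, adjusted p = 0.0736) with AAV9-GFP, and it was called under 2 of 26 alternatives, over which the adjusted p ranged from 0.0257 to 0.187. Of these rare collagens, 6 had no count in 1 or 2 mice although no other mouse had fewer than 7 counts. Col11a2 was listed at 0 in AAV9-GFP TAC replicate 1 with at least 32 counts in every other mouse, and Col20a1 at 0 in AAV9-Cardinal sham replicates 3 and 4 with at least 15 counts elsewhere.

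Genes of collagen biosynthesis and handling were examined as a list of 38, of which 36 were tested: enzymes and chaperones that modify, fold, export, cut and cross-link collagen, and its receptors (integrin chains, Ddr1, Ddr2 and the uptake receptor Mrc2). In AAV9-GFP hearts 14 of them rose and 1 fell after TAC, and in AAV9-Cardinal hearts 6 rose and 1 fell, with medians of 0.22 and 0.20 in log2 fold change. Of all genes, 8.49% rose and 8.92% fell with AAV9-GFP, and 3.1% and 3.38% with AAV9-Cardinal. Ddr1 and Mrc2 were among the 14. The largest rises with AAV9-GFP were those of the cross-linking oxidases Lox (1.58, SE 0.29, adjusted p = 0.00179) and Loxl2 (1.504, SE 0.19, adjusted p = 9.96e-05), and the same genes led with AAV9-Cardinal (1.23, SE 0.30, adjusted p = 0.028 and 0.78, SE 0.19, adjusted p = 0.0287). P3h4, of the prolyl 3-hydroxylase family, fell by 0.65 (SE 0.10, adjusted p = 0.000543) and by 0.44 (SE 0.10, adjusted p = 0.022). Between the viruses, 0 of 36 were called after TAC with edgeR, where 12 were lower and 1 higher at an unadjusted p under 0.05, against 7.42% and 7.58% of all genes. In sham hearts edgeR called 0, and 0 had an unadjusted p under 0.05.

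Markers of the cell types in the apex moved beside these collagens as follows, and their part in the results was not tested. Their counts stand beside 8.49% of all genes that rose and 8.92% that fell with AAV9-GFP, and 3.1% and 3.38% with AAV9-Cardinal. As a check of the tissue, 7 cardiomyocyte markers summed to between 28109 and 38959.6 CPM in every mouse. Of these, 4 fell after TAC in AAV9-GFP hearts (Myh6, Ryr2, Tnni3 and Tnnt2), where the sum was 28109 to 33553 CPM, and 1 rose in AAV9-Cardinal hearts (Actn2). Of 7 fibroblast markers, 3 rose with AAV9-GFP (Cd248, Lum and Mfap5) and 1 with AAV9-Cardinal (Mfap5), and their sum was 389 to 451 CPM in AAV9-GFP sham, 421 to 567 CPM in AAV9-GFP TAC, 379 to 409 CPM in AAV9-Cardinal sham and 375 to 484 CPM in AAV9-Cardinal TAC mice. Of 6 markers of activated fibroblasts, 5 were tested and 3 rose with both viruses (Ltbp2, Postn and Thbs4), and the sum went from 29.0 to 32.3 CPM in sham to 165.7 to 277 CPM in TAC mice with AAV9-GFP, and from 25.4 to 34.1 CPM to 47.1 to 139 CPM with AAV9-Cardinal. The highest value of each AAV9-Cardinal TAC range was that of replicate 1. Cthrc1 had no count in AAV9-GFP sham mice. Endothelial markers rose in 1 of 7 for each virus (Cdh5 with AAV9-GFP and Fabp4 with AAV9-Cardinal), with sums of 769 to 895 CPM in AAV9-GFP sham and 868 to 1060.5 CPM in AAV9-GFP TAC, and of 778 to 832 CPM and 842 to 1062 CPM with AAV9-Cardinal. Of 8 mural markers, 2 rose and 1 fell with AAV9-GFP and 1 fell with AAV9-Cardinal, with sums of 974 to 1227 CPM in sham and 852 to 957 CPM in TAC mice. Of 7 macrophage markers 2 rose with AAV9-GFP and 0 with AAV9-Cardinal, with sums between 101 and 142 CPM in all mice. Of 3 Schwann cell markers, 2 were tested, and 1 fell with AAV9-GFP, with sums between 1.05 and 6.10 CPM. The 4 cartilage markers summed to 0.929 to 2.02 CPM in sham, 5.10 to 7.92 CPM in AAV9-GFP TAC and 3.05 to 5.22 CPM in AAV9-Cardinal TAC mice, and Acan had no count in any sham.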

How the data were processed

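RNA from the heart apex of 16 mice had been sequenced as poly(A)-selected, single-end libraries. The authors deposited raw counts per Ensembl gene, one column per mouse. The submitters' processing notes name FastQC, HISAT2 2.1.0, edgeR 3.26.1 and GRCm38. The counting program, annotation, use of strand and treatment of reads with several matches are not given in the sources used here. Symbols, positions and exon lengths came from GENCODE on GRCm38 (55394 of 55573 genes named).

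The counts were fitted with edgeR 4.0.16 under R 4.3.3 (TMM, expression filter leaving 16857 genes, quasi-likelihood fit of all 16 mice, 5 contrasts, Benjamini-Hochberg adjustment, threshold 0.05). The common coefficient of variation was 0.128, and total counts were 16441997 to 21904589. Same-group mice differed by more than sampling noise (chi-square per degree of freedom 5.32 to 15.9 over 24 pairs). Ratios were tested by exact permutation (70 labelings) in Python 3.11.15. The fit was tested on simulated data. Promoter windows came from RefSeq. The alternatives were DESeq2 1.42.0, RLE scaling, other filters, only the mice compared, a robust fit, no mitochondrially encoded genes, a replicate block, a GC offset and each mouse left out.

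Every analysed collagen was accounted for. Values per mouse were given for those called in any comparison and for the 5 most abundant per kb of each class, and pathway genes for the 2 largest called changes per direction. The members, gene lists and rules were chosen with earlier results of these data known. The class sums without AAV9-Cardinal TAC replicate 1 are an alternative chosen after seeing the data. The choice to print fits without that mouse beside the main ones was also made after seeing the data. Mice were taken as separate animals from their labels.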

Additional observations from a re-analysis of the deposited data

Results flagged for a closer look

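Of 100 sets of 4 mice checked for 1 mouse lying far from the other 3 relative to the range of its group, 19 did so, where chance gives about 5.0, and 10 of the 19 came from AAV9-Cardinal TAC replicate 1. In that mouse Col1a1 was at 95.5 CPM (46.0 to 52.4 in the other 3), Col1a2 at 121 CPM (60.8 to 68.4), Col3a1 at 249 CPM (75.3 to 92.5) and Col5a1 at 46.1 CPM (26.8 to 29.8). Its level of Col5a2 was 41.0 CPM (23.2 to 25.7), of Col8a1 54.9 CPM (27.4 to 32.1), of Col14a1 17.5 CPM (6.25 to 7.45) and of Col9a2 0.221 CPM (0 in the other 3). The fibrillar sum of the mouse was 61.4 CPM per kb (27.5 to 31.3) and its sum of other collagens 43.3 CPM per kb (25.3 to 28.3). Several of these chains share a source, so they are not separate observations.

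In sham hearts, AAV9-GFP replicate 4 was high for Col4a1 (269 CPM, against 195 to 206), Col4a2 (214 CPM, against 167 to 172) and the basement membrane sum (82.3 CPM per kb, against 64.2 to 66.6), and AAV9-GFP replicate 1 for Col8a1 (16 CPM, against 11.8 to 12.2). AAV9-Cardinal sham replicate 1 was high for Col1a2 (63.3 CPM, against 48.3 to 49.7) and replicate 4 for Col1a1 (45.3 CPM, against 39.4 to 40.4). After TAC, AAV9-GFP replicate 7 was low for Col4a4 (6.91 CPM, against 10.9 to 11.5), AAV9-GFP replicate 3 high for Col6a1 (86.4 CPM, against 77.0 to 78.1) and AAV9-Cardinal replicate 4 low for Col4a1 (315 CPM, against 378 to 391). The cause was not tested.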

How the results depend on the processing

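In AAV9-GFP hearts, 21 or 22 collagens were called for TAC against sham under every alternative other than leaving out mice, where 20 to 23 were called. In AAV9-Cardinal hearts, the count of 9 became 3 (2 higher and 1 lower) with a replicate block and also 3 with a GC offset and replicate block, 8 to 12 under the other settings, and 6 to 11 without single mice. Under the block the calls of Col4a1, Col4a2, Col6a2, Col6a3, Col12a1 and Col15a1 were lost (adjusted p of 0.0884 to 0.219). Mice were not taken as paired, since the labels state no pairing. Of 16 same-numbered pairs, 4, all among the mice numbered 1, had a correlation of deviations over 0.1 (median 0.0544, against -0.013 for other pairs). Pairs among the mice numbered 1 ranged from 0.0671 to 0.211, and 5 of 13 mice correlated best with their own number. Whether the mice numbered 1 shared a factor was not tested. The block changed no count in the other comparisons. For AAV9-Cardinal against AAV9-GFP after TAC, the count of 0 became 11 with DESeq2, 2 with at least 50 counts in 4 mice (Col8a1 and Col15a1), 1 (Col8a1) without mitochondrially encoded genes and 1 (Col8a1) with a GC offset, and 0 to 16 without single mice. The interaction gave 3 with DESeq2 and 0 to 9 without single mice, and the sham comparison gave 0 throughout. The cause of these changes was not tested.

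Called fold changes kept their direction under all alternatives that gave them an adjusted p. Without single mice, the call was lost for Col4a4 and Col4a5 with AAV9-GFP and for Col6a2, Col12a1 and Col15a1 with AAV9-Cardinal, with Col12a1 lost without AAV9-Cardinal sham replicate 2 (adjusted p = 0.0593). Differences in the log2 ratio of Col3a1 to Col1a1 changed sign without single mice, with ranges of -0.0227 to 0.0800 for TAC against sham with AAV9-GFP, -0.0140 to 0.21 with AAV9-Cardinal, -0.0779 to 0.15 between viruses after TAC and -0.0866 to 0.0626 in shams. With the longest transcript as length, the fibrillar sums were 37.6, 91.9, 37.2 and 58.7 CPM per kb and the other sums 28.3, 60.1, 27.3 and 40.5 CPM per kb (AAV9-GFP sham and TAC, AAV9-Cardinal sham and TAC), because that length is shorter than the union of exons. Without TMM scaling, the other sum in AAV9-GFP TAC was 48.7 CPM per kb. Depth limits the rarest collagens, those under 1 CPM.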
